A study of Caenorhabditis elegans with 8 samples.

Results

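The genes described here encode the replicative DNA helicase and its sliding clamp in Caenorhabditis elegans. They were taken by sequence name as the 6 subunits of the MCM helicase, mcm-2 to mcm-7, and pcn-1, the gene for PCNA. All 7 were listed in both deposited tables, among 20389 genes in the count table. None was chosen for its measured level, although earlier results of these data were known when the genes were chosen.

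In the series, mRNA was sequenced from whole worms at 2 stages of development. Larvae (n = 4 libraries) are called L3 in the labels and L2/L3 in the study's methods. They were collected after embryos had hatched overnight and the animals had grown for 24 hours on plates. They were compared with mixed-stage embryos (n = 4 libraries), released with bleach from parents that had not been synchronized. All 8 libraries came from one strain, VC199, with the genotype sir-2.1(ok434) IV, a deletion allele of a sirtuin deacetylase gene. A wild-type strain was not analysed here, so the contrast below is one of stage within that mutant. Polyadenylated RNA was purified, and the libraries kept the strand of each transcript. Because whole animals were lysed, fewer cells of a type and less RNA per cell cannot be told apart in any value below.

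The larvae libraries held 13687095 to 22419153 gene counts, and the embryo libraries held 16300947 to 31292935. Gene-level reads of sir-2.1 were present in every library, at 13.7 to 17.4 TPM in larvae and 35.8 to 38.6 TPM in embryos, where TPM is the authors' length-scaled abundance, which sums to 1000000 over a library. Which exons the deletion removes was not analysed here, so these reads do not check the genotype. The labels of larvae replicate 2 and embryo replicate 1 each join a pair of library identifiers. Markers of larval cuticle were called higher in larvae for 6 of 8 genes and lower for 1. Markers of early embryos were called lower in larvae for 7 of 8. Over all genes tested, 36.9% were called higher in larvae and 37.2% were called lower. Markers of adult tissue, a list of 9 yolk and collagen genes, summed to 1.97 to 18.3 TPM in larvae and to 0.872 to 62.1 TPM in embryos, with the highest value in embryo replicate 2. Within that list, col-7 had at most 1 count in larvae and 2 counts in embryos, and col-62 had 4 to 11 counts in larvae and 0 in embryos.

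The MCM subunits form a ring that is loaded onto DNA at replication origins before S phase and is then activated to unwind the duplex ahead of the fork. PCNA is a ring of identical subunits that encircles DNA behind the helicase, holds the polymerases on their template and serves as a landing platform for repair and cell cycle proteins. Both are needed in each round of DNA synthesis. In C. elegans, embryonic cells divide in quick succession, many of them on maternally supplied products, whereas in larvae a smaller part of the body divides, mainly germ cells, blast cells of the epidermis and vulva, and neuroblasts, together with intestinal nuclei that replicate without dividing.

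The genes lie on all 5 autosomes and none lies on X. In 1-based WS220 coordinates, mcm-2 (Y17G7B.5) lies on chromosome II from 12001446 to 12006561, mcm-3 (C25D7.6) on V from 15056702 to 15059584, and mcm-4 (Y39G10AR.14) on I from 2318293 to 2321849. The mcm-5 gene (R10E4.4) lies on III from 4288233 to 4291256, mcm-6 (ZK632.1) on III from 9794281 to 9798558, and mcm-7 (F32D1.10) on V from 4347150 to 4349761. The pcn-1 gene (W03D2.4) lies on IV from 4047922 to 4049443. The merged exons of the helicase genes span 2418 to 2827 bases in the later WBcel235 annotation, against 991 bases for pcn-1. Another gene overlaps each of 4 loci, and whether the counting used strand is not given in the sources used here, so reads in the shared stretches are uncertain. At the mcm-7 locus this was F32D1.3, with a median of 212.5 counts in larvae and 590.5 counts in embryos. At the mcm-3, mcm-4 and mcm-6 loci the neighbour had medians of at most 62 counts in larvae and 136.5 counts in embryos.

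All 7 genes were lower in larvae than in embryos, and in none of them did the stages overlap. The fall on the log2 scale lay between -1.75 for mcm-6 and -3.61 for mcm-7, with a median of -2.39, against a median of -0.03 over the 13571 genes tested. The 7 transcripts together took 0.0259% to 0.0372% of the gene counts of a larvae library and 0.227% to 0.389% of those of an embryo library. By the quasi-likelihood test of edgeR with Benjamini-Hochberg adjustment over all genes tested, 7 of 7 were called lower in larvae. The p-values measure the spread between these libraries, which the study's methods call biological replicates and the labels do not tie to separate cultures. Calls were common in this contrast, since 37.2% of all genes tested were called lower in larvae and 36.9% were called higher. Complete separation of the stages was also common, with 35.6% of genes having every larvae library below every embryo library. Against that background the members stood among the stronger falls, with 6.32% to 14.6% of genes showing a lower log2 fold change.

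mcm-2 encodes the subunit that, in yeast, forms one side of the gate through which DNA enters the ring, and that also binds histones. Its level was 14.7, 20.02, 14.6 and 10.4 TPM in larvae replicates 1 to 4 and 99.1, 158, 147 and 138 TPM in embryo replicates 1 to 4. The lowest embryo library was 4.95 times the highest larvae library in TPM and 2.275 times on counts scaled for library size. On counts, it fell by 2.16 ± 0.243 on the log2 scale (edgeR adjusted p = 7.55e-06), where the error, here and for the log2 changes that follow, is the standard error of the fit.

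mcm-5 encodes the subunit on the other side of that gate in yeast. Its level was 12.5, 10.9, 9.34 and 6.46 TPM in larvae and 85.2, 144, 81.7 and 108 TPM in embryos. It was the lowest of the 7 genes in 3 of 4 larvae libraries, and replicate 4 was the lowest larvae library. It fell by 2.59 ± 0.247 on the log2 scale (edgeR adjusted p = 2.07e-06).

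mcm-3 encodes the subunit that, in yeast, contacts the origin-bound loading machinery. It had 12.9, 12.4, 10.1 and 7.599 TPM in larvae, against 78.6, 139.5, 85.0 and 99.8 TPM in embryos. The pattern over libraries was close to that of mcm-5, with larvae replicate 1 highest and larvae replicate 4 lowest. On the log2 scale it fell by 2.39 ± 0.231 (edgeR adjusted p = 2.23e-06).

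mcm-4, also known as lin-6, is needed for larval DNA synthesis in C. elegans, and its product is a target of the activating kinase CDC-7 in yeast. It had 16.5, 18.2, 17.8 and 13.6 TPM in larvae and 80.4, 153, 94.4 and 114 TPM in embryos. Its larvae libraries were close together, with the highest 1.34 times the lowest in TPM. The change in larvae was -1.90 ± 0.219 on the log2 scale (edgeR adjusted p = 9.53e-06).

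mcm-6 encodes the subunit that binds the loading factor Cdt1 in yeast and human cells. It had 12.5, 12.98, 11.5 and 9.28 TPM in larvae and 57.1, 96.5, 56.2 and 69.1 TPM in embryos. It was the lowest of the 7 genes in all 4 embryo libraries, and its fall was the smallest of the 7. Larvae differed by -1.75 ± 0.204 on the log2 scale (edgeR adjusted p = 1.03e-05).

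mcm-7 encodes the subunit whose ubiquitylation releases the helicase from chromatin at the end of replication in C. elegans embryos. It had 14.04, 18.9, 17.9 and 12.03 TPM in larvae, against 259, 443, 334 and 335 TPM in embryos. The lowest embryo library was 13.7 times the highest larvae library, the widest gap among the members. On the log2 scale the change was -3.61 ± 0.232 (edgeR adjusted p = 1.02e-07), which placed it at rank 859 of 13571 from the lowest.

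pcn-1 was the most abundant of the 7 per length in every library of both stages. It had 49.2, 56.9, 45.2 and 40.7 TPM in larvae and 549, 964, 1059 and 685 TPM in embryos. Unlike the helicase subunits, it was highest in embryo replicate 3. Its log2 fold change was -3.25 ± 0.246 (edgeR adjusted p = 3.29e-07).

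**Figure D1:**
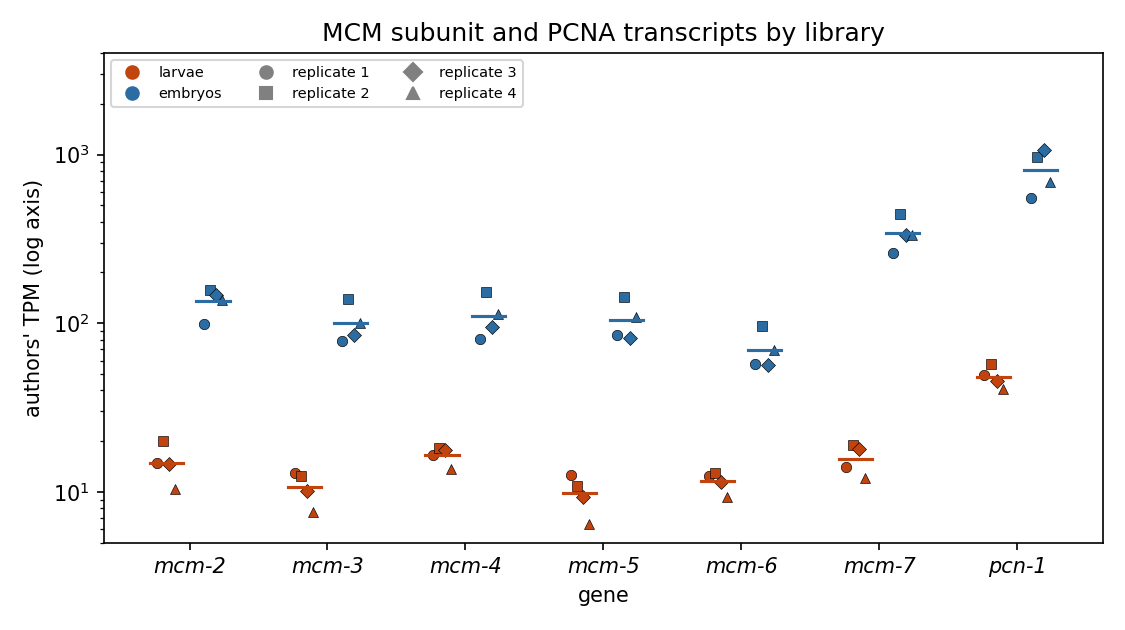
Level of each gene in TPM (log axis) in 4 larvae libraries (left of each pair) and 4 embryo libraries (right), with symbols for the replicate and a bar at the mean. No gene overlaps between stages, and mcm-7 and pcn-1 stand above the other genes in embryos, whereas only pcn-1 does so in larvae.

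As means, mcm-2 had 14.9 ± 3.96 TPM in larvae and 136 ± 25.8 TPM in embryos, and mcm-7 had 15.7 ± 3.23 TPM in larvae and 343 ± 75.5 TPM in embryos (SD, n = 4 each). For pcn-1 the means were 48.01 ± 6.88 TPM in larvae and 814 ± 237 TPM in embryos (SD, n = 4 each). The other 4 genes averaged 9.81 to 16.5 TPM in larvae and 69.8 to 110.4 TPM in embryos. The size of the difference depends on the scale. In TPM, the embryo mean was 6.03 times the larvae mean for mcm-6 and 21.8 times for mcm-7. In CPM, counts per 1000000 with library sizes scaled by TMM to set the bulk of genes level, the same ratios were 3.36 and 12.2. Over all genes the median log2 fold change was -0.53 when library totals alone set the scale and -0.82 on log2(TPM + 1) by limma, against -0.03 with TMM. Under totals the members lay between -4.08 and -2.23 and under limma between -4.36 and -2.47, well below those medians. The split of all calls moved with it, to 6607 lower and 3683 higher under totals and to 7612 lower and 2816 higher in TPM, against 5054 lower and 5004 higher with TMM.

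Leaving out any 1 of the 8 libraries ended none of the 7 calls and changed no direction. With 1 library left out, the log2 fold changes of the 6 subunits were smallest without embryo replicate 2, at -1.56 for mcm-6 and -3.47 for mcm-7. For pcn-1 the smallest was -3.11, without embryo replicate 3. In embryo replicate 2 all 7 members lay above the embryo mean, and the adult marker sum was the highest of the libraries. The part of adult tissue in these values was not tested.

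The helicase ring holds its subunits in equal numbers. Their transcripts were not at equal levels, and the shares of mcm-7, mcm-4 and mcm-6 differed between stages by more than the spread between libraries. In TPM, mcm-7 supplied 16.9%, 20.2%, 22.1% and 20.3% of the summed subunit transcripts in larvae replicates 1 to 4. In embryos it supplied 39.3%, 39.1%, 41.8% and 38.8%, so the stages did not overlap. The means were 19.9 ± 2.17% in larvae and 39.7 ± 1.41% in embryos (SD, n = 4 each).

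The shares of mcm-4 and mcm-6 went the other way. mcm-4 supplied 21.1 ± 1.62% in larvae and 12.7 ± 0.79% in embryos, and mcm-6 supplied 14.7 ± 0.80% in larvae and 8.06 ± 0.73% in embryos (SD, n = 4 each), again with no overlap. For mcm-5 the stages overlapped, with means of 12.3% in larvae and 12.1% in embryos. Shares sum to 100%, so a larger share of mcm-7 in embryos lowers those of the other subunits together. A ratio of a pair of subunits is free of that, and mcm-7 was 1.13 to 1.56 times mcm-6 in larvae and 4.54 to 5.94 times mcm-6 in embryos.

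The shares of mcm-2 and mcm-3 depended on the length scale. mcm-2 averaged 18.6% in larvae and 15.8% in embryos in TPM, with overlap, but 16.4% in larvae and 12.02% in embryos without overlap when counts were divided by merged exon length. mcm-3 averaged 13.5% in larvae and 11.6% in embryos in TPM, without overlap, but overlapped on reads per kilobase. Of the 7 genes, mcm-2 alone had a ratio of TPM to reads per kilobase that varied 2.13-fold over the libraries, against 1.36-fold to 1.37-fold for the others. The method behind the TPM is not given in the sources used here, and the count and TPM tables may not rest on the same gene models. The TPM levels of mcm-2, and its ratio of 9.09 between the embryo and larvae means, are therefore less certain than those of the other members. The shares of mcm-7, mcm-4 and mcm-6 kept their separation of stages on both scales.

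**Figure D2:**
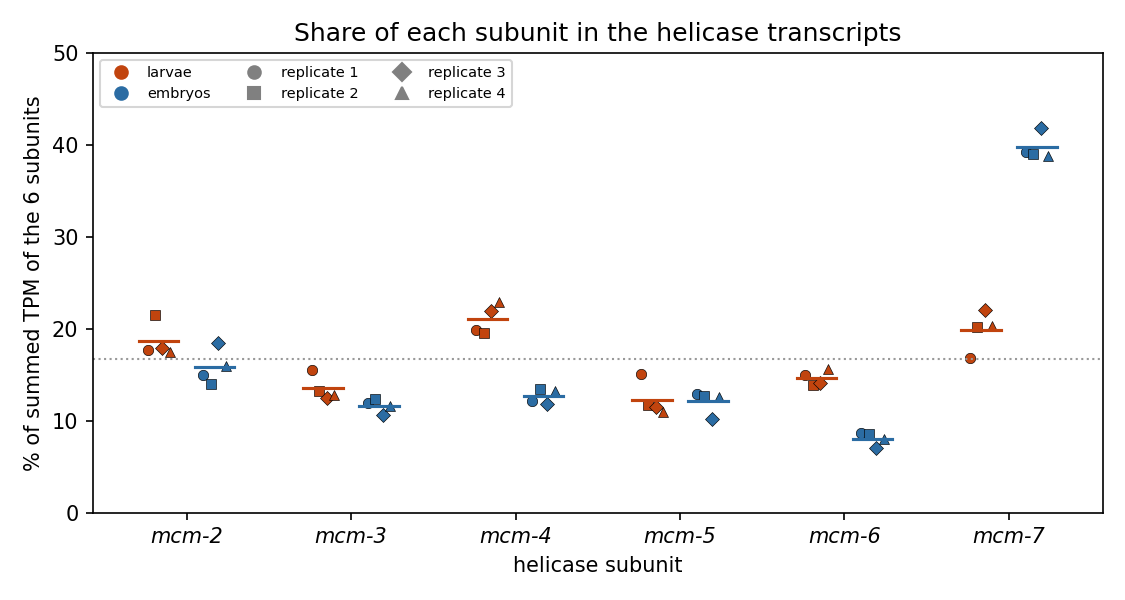
Share of each subunit in the summed TPM of the 6 helicase subunits, in percent, for 4 larvae libraries (left of each pair) and 4 embryo libraries (right), with a bar at the mean and a dotted line at an equal share. mcm-7 averages 19.9% in larvae and 39.7% in embryos, whereas mcm-4 and mcm-6 hold larger shares in larvae.

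The highest subunit was 1.33, 1.84, 1.92 and 2.099 times the lowest in larvae replicates 1 to 4 and 4.54, 4.59, 5.94 and 4.85 times the lowest in embryo replicates 1 to 4. This separation rested on mcm-7, since among the other 5 subunits the ratio was 1.33, 1.84, 1.91 and 2.099 in larvae and 1.73, 1.64, 2.62 and 1.99 in embryos, where the stages overlapped. The summed TPM of the 6 subunits was 83.2, 93.4, 81.3 and 59.3 in larvae and 659.5, 1134, 798 and 864 in embryos. In order of level, pcn-1 came first, mcm-7 next and mcm-6 last in every embryo library. Between them, mcm-2, mcm-3, mcm-4 and mcm-5 had means of 100.7 to 136 TPM with standard deviations of 25.8 to 31.5 TPM. mcm-2 led these 4 in every embryo library in TPM but in none on reads per kilobase, so their order was not resolved. In larvae only the lead of pcn-1 was stable in TPM. The next place in TPM was held by mcm-4 in replicates 1 and 4, mcm-2 in replicate 2 and mcm-7 in replicate 3. Neighbours in that order differed by less than their spread. On reads per kilobase, mcm-4 and mcm-7 came directly after pcn-1, in either order, and mcm-5 came last in every larvae library.

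The clamp was set against the helicase as the ratio of pcn-1 to the mean subunit in TPM. It was 3.55, 3.66, 3.34 and 4.12 in larvae and 5.00, 5.10, 7.96 and 4.76 in embryos, lower in larvae without overlap. Against mcm-7 alone the ratio was 3.51, 3.01, 2.52 and 3.38 in larvae and 2.12, 2.18, 3.17 and 2.04 in embryos, where the stages overlapped.

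Within a stage the members largely moved together. In embryo replicate 1 all 7 genes lay below the embryo mean of log2 CPM, with a median deviation of -0.51. In embryo replicate 2 all 7 lay above it, with a median of 0.509. In embryo replicate 3 pcn-1 lay 0.49 above the mean while the subunits lay between -0.28 and 0.06. In larvae replicate 4 all 7 genes lay below the larvae mean, with a median of -0.29, and in replicates 2 and 3 all 7 lay above it. In larvae replicate 1, mcm-5 and mcm-3 lay 0.40 and 0.28 above the mean while mcm-7 lay at -0.15. Larvae replicate 4 also stood at an end of the larvae for markers of other tissues. There the summed level was 2038 TPM for intestine markers, against 1145 to 1346 TPM in the other larvae libraries, 4343 TPM for body-wall muscle, against 3184 to 3861 TPM, and 3116 TPM for larval cuticle, against 4865 to 7092 TPM. Its germline markers had a median deviation of -0.43. Most of its intestine sum was act-5, at 1650 TPM. The intestine markers ges-1 and ifb-2 were also highest there. In contrast, elt-7 was lowest there, at 7.01 TPM against 11.4 to 13.8 TPM, and elt-2, at 8.88 TPM, lay within the range of the other larvae libraries. The part of these tissues in the members' levels was not tested.

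The same embryo libraries stood apart for the other genes of DNA replication. Of 48 such genes tested, 0 lay above the embryo mean in replicate 1 and 47 did in replicate 2, with median deviations of -0.36 and 0.27. In larvae replicate 4, 9 of 48 lay above the larvae mean, with a median of -0.19. Over all genes the medians lay between -0.03 and 0.03 in every library. The members' range among embryos was wide for this table, with the highest library 1.84 to 2.28 times the lowest in scaled CPM and 71.5% to 86.0% of genes showing a smaller range. Among larvae it was 1.21 to 1.86 times, with 9.39% to 61.6% of genes showing a smaller range.

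The early embryo and germline marker lists were low in embryo replicate 1, like the members, but neither list was highest in replicate 2. Early embryo markers had a summed level of 92.0, 121, 83.8 and 95.8 TPM in larvae replicates 1 to 4 and 742, 932, 1054 and 906 TPM in embryo replicates 1 to 4. Most of the larvae sum was skn-1, the one marker of that list not called, and the other 7 summed to 12.3, 8.09, 10.8 and 5.95 TPM in larvae and 526, 763, 871 and 776 TPM in embryos. Germline markers summed to 82.2, 71.3, 98.7 and 63.4 TPM in larvae and 167, 238, 275 and 233 TPM in embryos. Replicate 1, the lowest embryo library for the members, was the lowest of the 4 for both lists, and replicate 3, the highest for pcn-1, had the highest sum of both. In that germline sum gld-1 gave 116.5 TPM, against 43.0 to 70.7 TPM in the other embryo libraries. By median deviation the germline markers were highest in replicate 4, at 0.18, against 0.07 in replicate 3. In embryo replicate 2, where all 7 members were above the mean, the median deviations of the early embryo and germline markers were 0.12 and 0.03. Their sums there, 932 and 238 TPM, were below those of replicate 3 only. Body-wall muscle markers summed to 3184 to 4343 TPM in larvae and to 902 TPM in embryo replicate 1, above the 641 to 657 TPM of the other 3 embryo libraries. The part of these cells and tissues in the members' levels was not tested. Of the 9 germline markers, 5 were called lower in larvae, among them gld-1 with a log2 fold change of -2.86. glh-1, a germ granule protein, was called higher in larvae with a log2 fold change of 1.80, and 3 were not called.

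**Figure D3:**
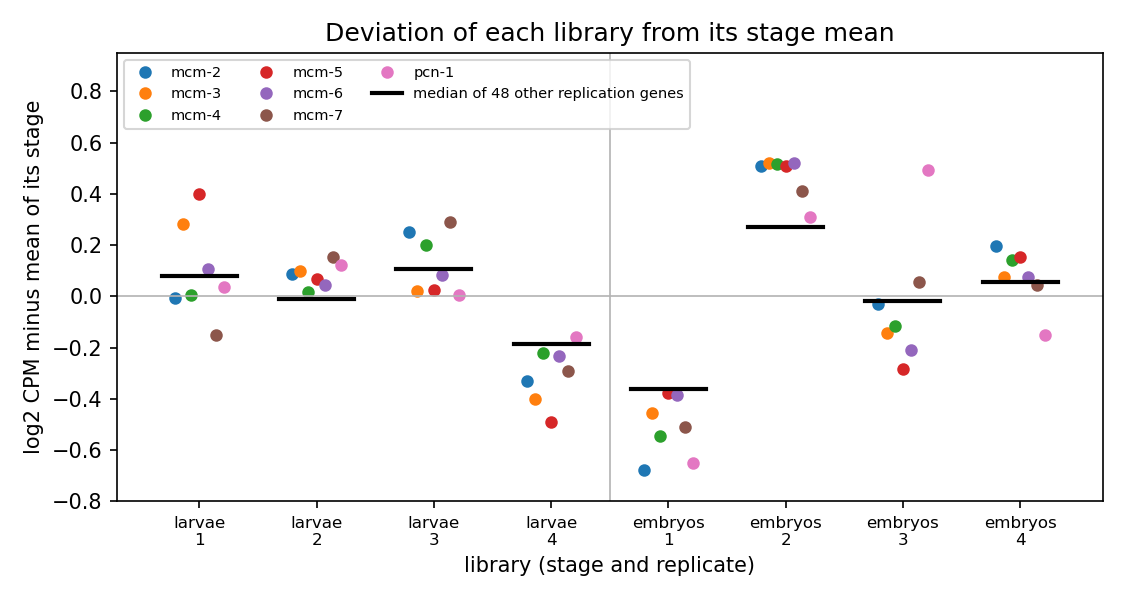
Deviation of each library from its stage mean, in log2 CPM, for the 7 genes (points) and as the median of 48 other replication genes (black bars), larvae libraries on the left and embryo libraries on the right. All 7 genes lie below 0 in embryo replicate 1 and larvae replicate 4 and above 0 in embryo replicate 2, while pcn-1 leaves the subunits in embryo replicate 3.

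To place the members within their pathway, 53 other replication genes in 8 lists were read from the same fit. Symbols matched for 50, and 48 passed the filter on low counts. By the edgeR test with Benjamini-Hochberg adjustment, 46 of the 48 were called lower in larvae, 1 was called higher, a direction that turned in TPM, and 1 was not called, with a median log2 fold change of -1.83. In 46 of the 48 every larvae library lay below every embryo library. These counts stand beside 37.2% of all genes called lower and 35.6% separated. The lists were chosen with earlier results of these data known. The helicase and clamp genes had a median of -2.39, and 3 of the 8 lists had medians from -2.12 to -2.47. The smallest fall of each list is named beside the largest to show its range and was chosen after the values were seen.

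Origin licensing genes load the helicase. All 7 tested were lower in larvae, and the largest fall belonged to gmn-1, the gene for geminin, which inhibits loading. It had 13.8 ± 4.44 TPM in larvae and 371 ± 49.5 TPM in embryos (SD, n = 4 each), and its log2 fold change was -3.83 ± 0.267 (edgeR adjusted p = 1.79e-07). cdt-1, which brings the ring to the origin and is the partner that geminin binds, fell by 3.39 on the log2 scale, and cdc-6, the loading ATPase, by 1.16. The inhibitor and the factor it binds were thus both low in larvae. orc-4 was not tested, because it had at most 1 count in any library, although the TPM table lists it at 3.71 TPM in larvae and 27.5 TPM in embryos.

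Genes that turn the loaded ring into an active helicase were also lower in larvae, in 9 of 9 cases. The largest fall was that of psf-2, a subunit of the GINS complex that joins the MCM ring, with a log2 fold change of -3.14. The smallest was that of mus-101, the counterpart of human TOPBP1, with -1.15. The 2 factors cdc-45 and sld-3 of this list did not match a symbol and were not analysed here.

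Replicative polymerases and primase were lower in larvae in 8 of 8 cases. pri-1, the primase subunit that makes the RNA primer, fell by 2.52 on the log2 scale, and pold-1, the catalytic subunit of polymerase delta that runs on the PCNA clamp, fell by 0.73 (edgeR adjusted p = 0.00240). For their clamp, pcn-1, the value was -3.25, and the difference between the clamp and the polymerases was not tested.

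Clamp loading and lagging-strand genes were lower in larvae in 8 of 8 cases. The largest fall was that of rfc-3, a subunit of the loader that opens and closes PCNA, with 12.9 ± 2.45 TPM in larvae and 153 ± 30.5 TPM in embryos (SD, n = 4 each) and a log2 fold change of -2.73. The smallest was that of ctf-18, the large subunit of an alternative loader, with -0.95.

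Single-strand binding and nucleotide supply genes were lower in larvae in 6 of 6 tested cases. rnr-2, the small subunit of ribonucleotide reductase, had 21.2 ± 5.21 TPM in larvae and 319.7 ± 84.9 TPM in embryos (SD, n = 4 each) and a log2 fold change of -3.08. rpa-2, a single-strand binding subunit, had -0.90 and was the one gene called lower whose stages overlapped in CPM. rpa-4 had 0 counts in all 8 libraries and was not tested, although the TPM table lists it at 2.83 TPM in larvae and 1.14 TPM in embryos, with larvae higher. The 3 fork protection genes were all lower in larvae, between -1.98 for tipn-1 and -1.19 for clsp-1.

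The ubiquitin ligase that uses PCNA on chromatin as its platform and destroys CDT-1 in C. elegans was mixed. cdt-2, its substrate receptor, fell by 1.43 and cul-4, its scaffold, by 1.08 on the log2 scale. ddb-1, its adaptor, was the one replication gene called higher in larvae, at 0.63 ± 0.148 on the log2 scale (edgeR adjusted p = 0.00211). That call was lost under library totals, at 0.14 (edgeR adjusted p = 0.422), and the direction turned on log2(TPM + 1), at -0.20 (limma adjusted p = 0.230). In TPM, ddb-1 had 10.3 ± 0.775 in larvae and 12.1 ± 1.80 in embryos (SD, n = 4 each).

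E2F factors activate MCM and PCNA genes in mammals, and the retinoblastoma protein represses such genes through them. efl-1, dpl-1 and lin-35, the genes for an E2F, its dimer partner and the retinoblastoma homologue, were lower in larvae, with log2 fold changes of -2.31, -2.101 and -2.14. efl-2, the other E2F gene of the list, had -0.25 and was not called (edgeR adjusted p = 0.189), although every larvae library lay below every embryo library. It was called lower under library totals, at -0.75 (edgeR adjusted p = 0.00199), and on log2(TPM + 1), at -1.085 (limma adjusted p = 4.96e-05).

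**Figure D4:**
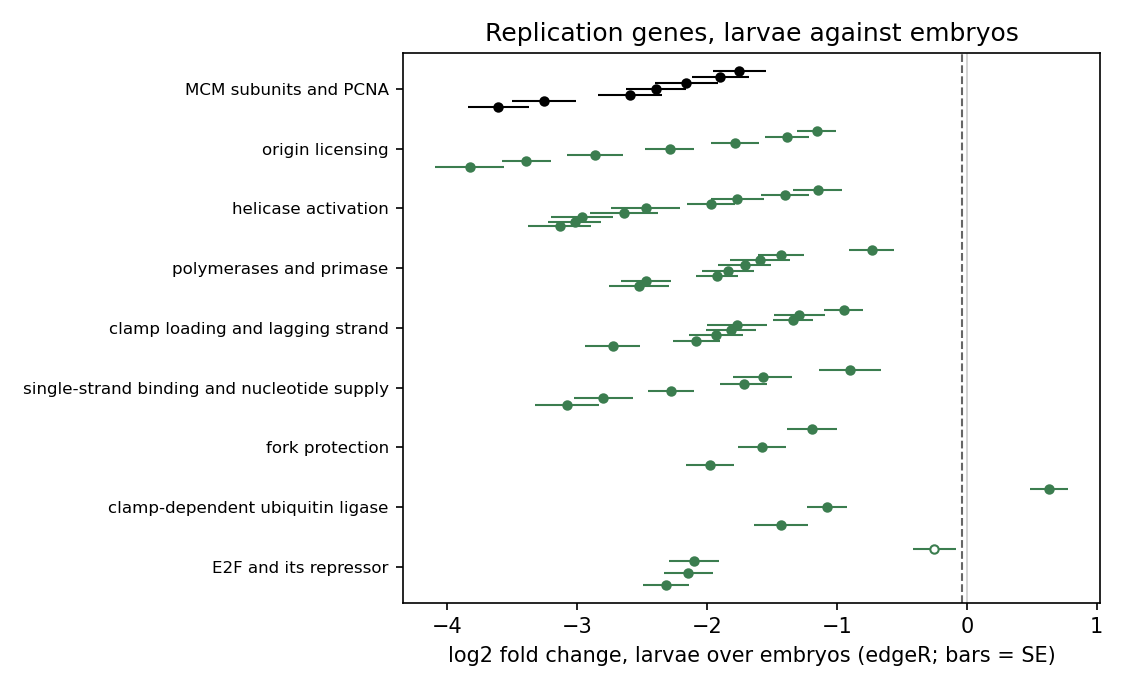
Log2 fold change, larvae over embryos, of the 7 genes (black) and of 48 other replication genes by list (green), with bars for the standard error from edgeR, an open point for the gene not called and a dashed line at the median of all genes tested. The 7 genes lie between -3.61 and -1.75, and ddb-1 at 0.63 is the one gene on the higher side, a direction that turned in TPM.

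The genes whose profile over the 8 libraries was nearest to the mean profile of the members were then listed, by the root mean square difference of centred log2 CPM over 13564 genes. They were knl-1 with a difference of 0.106, citk-2 with 0.107, hcp-1 with 0.114, pri-2 with 0.124 and ari-1.4 with 0.128, against a median of 1.39 over all genes. knl-1 encodes a scaffold of the kinetochore, hcp-1 another kinetochore protein and pri-2 the regulatory subunit of primase. Their log2 fold changes lay between -2.65 and -2.40, near those of the members because the genes were picked by that profile. Each member is itself part of the mean profile. Of the members, mcm-3 lay closest to the mean profile, at 0.113, and mcm-7 lay farthest, at 0.563, with 1181 other genes nearer. The measure takes in the stage difference and the spread within stages together.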

How the data were processed

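Reads were sequenced as single ends, aligned by the authors with Tophat (WS220 build) and tallied over genes in HTSeq (0.6.1p1 in the submitters' processing notes, which also name CASAVA 1.8 and Cufflinks 2.2.0 with no role given). The deposited counts are whole reads per gene. The 5 rows that name no gene were left out; 3.26% to 6.06% of reads fell in no gene and 0.861% to 1.07% were ambiguous. The deposited TPM are the authors' values, scaled for gene length and to a sum of 1000000, by a method not given in the sources used here. A further 14 sample columns of that table were not used. The authors' DESeq2 tables hold fold changes and p-values of the mutant against wild type and were not used. TPM levels carry the authors' length model, and counts do not correct for length, so genes were ranked against each other per length only.

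Larvae were compared with embryos by the quasi-likelihood test of edgeR 4.0.16 (R 4.3.3, limma 3.58.1) on counts with TMM factors and filterByExpr, which left 13571 genes, with all 8 libraries and no covariate. P-values were adjusted by Benjamini-Hochberg over all genes and called at 0.05. The standard error is the absolute log2 fold change over the root of the F statistic. The code was tested on simulated data. Log2 CPM used a prior count of 1, and shares were taken with pandas 2.3.3 (Python 3.11.15). The biological coefficient of variation common to all genes was 30.8% for larvae and 21.7% for embryos, and every pair of libraries within a stage differed beyond sampling noise. Counting error covers reads, not molecules, because PCR copies were not marked.

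The members and lists were chosen with earlier results of these data known. The text names the 7 members, the largest called fall and rise of each replication list, genes called against their list, and the 5 genes with the nearest profile. The smallest fall of each list, cdt-1, the other E2F genes and the genes not tested were named after their values were seen. So were the germline markers gld-1 and glh-1, skn-1, the single intestine markers and the genes of the closing observations. Markers were fixed lists for early embryo, germline, larval cuticle, muscle, intestine, neurons and adult carry-over. Muscle markers were called higher in larvae in 4 of 4 cases, intestine in 3 of 5 (1 lower), neurons in 2 of 5 (1 lower) and adult markers in 0 of 5 tested. Gene starts in the files count from 0, so 1 was added. Alternatives were DESeq2 1.42.0, RLE factors, library totals, no filter, a test against a fold change of 2, limma on log2(TPM + 1) or log2(TPM + 0.1) for genes with a mean of at least 1 TPM or with no filter, the replicate number as a block, and each library left out.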

Additional observations from a re-analysis of the deposited data

Results flagged for a closer look

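Values that stand apart within 1 stage were sought in 30 groups of 4 libraries by Dixon's gap, of which chance gives about 1.5 and 4 were found. In larvae replicate 2, mcm-2 held 21.4% of the summed subunit TPM, against 17.5% to 17.9% in the other 3 larvae libraries. On reads per kilobase the same library had 16.5%, within the 15.4% to 17.4% of the others.

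The remaining 3 values belong to embryo replicate 3. There mcm-5 held 10.2% of the subunit TPM, against 12.5% to 12.9% in the other embryo libraries, and mcm-7 held 41.8%, against 38.8% to 39.3%. pcn-1 was 7.96 times the mean subunit, against 4.76 to 5.10 times. On reads per kilobase the pcn-1 ratio was 7.49 in that library, against 4.30 to 4.58, and still stood apart, with a gap of 0.91 of the range, past Dixon's critical value. On that scale the mcm-7 share was 45.1%, against 39.9% to 41.3%, and the mcm-5 share was 10.6%, against 12.7% to 13.5%. Their gaps, 0.73 and 0.723 of the range, no longer reached that value.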

How the results depend on the processing

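The 7 calls and directions held under all 17 alternatives to the fit, with a largest adjusted p of 0.00101. The log2 fold change of mcm-6, the smallest, lay between -2.56 and -1.56 and that of mcm-7, the largest, between -4.43 and -3.47. Leaving out 1 library gave 7 calls among the members each time, 46 lower calls in the replication lists and 9726 to 10363 calls over all genes, beside 10058. For ddb-1 the direction turned in TPM, at -0.20 on log2(TPM + 1) with or without the filter and -0.21 on log2(TPM + 0.1), and the call was lost under library totals, at 0.14. A test against a fold change of 2 gave 5913 calls over all genes, 38 in the lists and 7 among the members. Library totals gave 64.2% of all calls lower, and limma gave 73.0% on log2(TPM + 1), 73.0% on log2(TPM + 0.1) and 70.6% with no filter, against 50.2% with TMM. Embryo over larvae ratios of stage means in TMM-scaled CPM were 4.47 for mcm-2, 5.24 for mcm-3, 3.73 for mcm-4, 6.02 for mcm-5, 3.36 for mcm-6, 12.2 for mcm-7 and 9.54 for pcn-1, beside 9.09, 9.37, 6.68, 10.7, 6.03, 21.8 and 16.96 in TPM. On reads per kilobase, an alternative chosen after seeing the data, the mcm-2 share was 16.4% in larvae and 12.02% in embryos, and the mcm-7 share was 41.6% in embryos.

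The replicate numbers are shared by both stages, but same-numbered libraries did not deviate together, with correlations of -0.146, -0.18, 0.065 and -0.072 over genes, so the numbers were not taken as pairs. A fit with the replicate block gave 9768 calls, with 7 of 7 members lower. Depth was not a limit for the members, whose lowest count was 419 in larvae and 2493 in embryos.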

Other observations

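Some other replication genes, like pcn-1, were highest in embryo replicate 3 in TPM. Of the 48 tested, 23 lay above the embryo mean of log2 CPM there, against 47 in replicate 2. No deviation from the helicase was computed for the genes named here. In TPM, orc-5, an origin recognition subunit, had 46.8, 57.7, 78.1 and 42.4 in embryo replicates 1 to 4, and rfc-3, a clamp loader subunit, had 119.8, 169, 186 and 135.5. gmn-1 had 313.5, 405, 419 and 346. All 3 were highest in embryo replicate 3, as were the early embryo markers mex-5, with 83.0, 136, 209.8 and 155 TPM, and pie-1, with 45.6, 70.5, 92.1 and 65.8 TPM. Not every marker of that list did so. pos-1 was highest in replicate 4, at 439 TPM, and skn-1 in replicate 1, at 216 TPM, against 430 and 183 TPM in replicate 3. These genes were picked after their values were seen, and a link between them was not tested.

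Genes of 1 enzyme also differed in how they stood between stages. For ribonucleotide reductase, rnr-1, the large subunit, had 29.0 ± 6.97 TPM in larvae and 154.5 ± 30.8 TPM in embryos, and rnr-2, the small subunit, had 21.2 ± 5.21 TPM in larvae and 319.7 ± 84.9 TPM in embryos (SD, n = 4 each). Their log2 fold changes were -1.57 and -3.08, with standard errors of 0.225 and 0.246.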
